A study of Danio rerio with 48 samples.

Results

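The comparison set the high-dose effect of cobalt against the high-dose effect of chromium in whole adult zebrafish. For each probe the effect of a metal was the mean log2 intensity of its high-dose arrays minus that of its own control arrays, and the chromium effect was then subtracted from the cobalt effect. Of 48 arrays in the series, 16 belonged to the 4 groups of this comparison, with 4 arrays in each group. They were the cobalt controls, the high cobalt exposure at a measured 59.5 mg/L, the control arrays labelled for chromium, and the high chromium exposure at a measured 80.6 mg/L. The fish were 6 to 9 months old, every group was kept for 24 h in flow-through aquaria, controls received no metal, and RNA from whole pulverised fish was pooled before hybridisation. No source used here gives the strain, the sex, the metal salts or the number of fish behind an array. The chromium control arrays carried 4 RNA pools that were each also hybridised on an array labelled for nickel, whereas cobalt had controls of its own. The concentrations of the metals were unequal, so each difference is one between these exposures and not one between equal doses.

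Cobalt is the metal at the centre of cobalamin, and its dissolved ions are widely used to mimic low oxygen, because they interfere with the oxygen-dependent enzymes that mark the hypoxia-inducible factor for degradation. Chromium acts differently according to its oxidation state. The oxidised form enters cells through anion carriers and is reduced inside them to species that bind DNA and protein, whereas the reduced form crosses membranes poorly. In fish, the gill and the gut are the main routes by which dissolved metals enter, and the liver and kidney handle much of what has been absorbed.

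The arrays measured 43714 probes of 21903 transcripts, of which 41681 probes carried Ensembl and 2033 carried Vega transcript IDs, and 21811 transcripts had 2 probes. The median of an array lay between log2 5.63 and 5.66, arrays of the same group correlated between 0.984 and 0.992, and 66.2% to 68.5% of the probes of an array lay above log2 5, a background limit taken from dark control spots after the values were seen. Nothing in the sources used here paired these IDs with gene symbols, so probes are named by ID, and neither pathway lists nor tissue markers could be applied. The number of arrays limits the precision. No label says whether the arrays of a group stem from different tanks. The p-values then reflect only the spread among these arrays, which may be technical.

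The high-dose effects of cobalt and chromium differed at 1841 of the 43714 probes, 4.21% of those tested (limma, Benjamini-Hochberg adjusted p under 0.05). The difference was above 0 at 1089 of them, 2.49% of all probes, and below 0 at 752, 1.72% of all probes. Differences above 0 were the larger ones. Their median was 1.203 on the log2 scale with an interquartile range of 0.89 to 1.71, and 186 of the 1089 (17.1%) exceeded 4-fold. Among differences below 0 the median was -0.89, the interquartile range was -1.23 to -0.69, and 42 of 752 (5.59%) exceeded 4-fold. The median standard error was 0.24 for the first and 0.21 for the second. The overlap of individual arrays was also counted, as a description and no further test, because the same arrays chose these probes. After each metal's control mean was subtracted, the 4 high cobalt arrays and the 4 high chromium arrays did not overlap at 1067 of the 1089 and at 743 of the 752, while 16.5% of all probes had no overlap. In whole fish, fewer cells of a type and less RNA per cell cannot be told apart.

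Many probes responded to both metals. Each metal's own effect passed the test at 17.3% of all probes for cobalt (7554) and at 15.6% for chromium (6828), and the 2 effects had a Pearson correlation of 0.55 across all probes, given as a description because probes are not independent replicates. These effects share no array. At 3562 probes both metals moved the signal in the same direction, and the sizes differed at 313 of these, or 8.79%. Of the 3878 probes that changed with cobalt and did not pass the test with chromium, 597 differed between metals, or 15.4%. Of the 3152 that changed with chromium and did not pass with cobalt, 791 differed, or 25.1%. Most probes that passed in 1 metal only were thus not shown to differ between the metals. All 114 probes that moved in opposite directions differed. Opposite effects that each pass add up in the difference, so this result was nearly fixed by the choice of these probes.

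**Figure D1:**
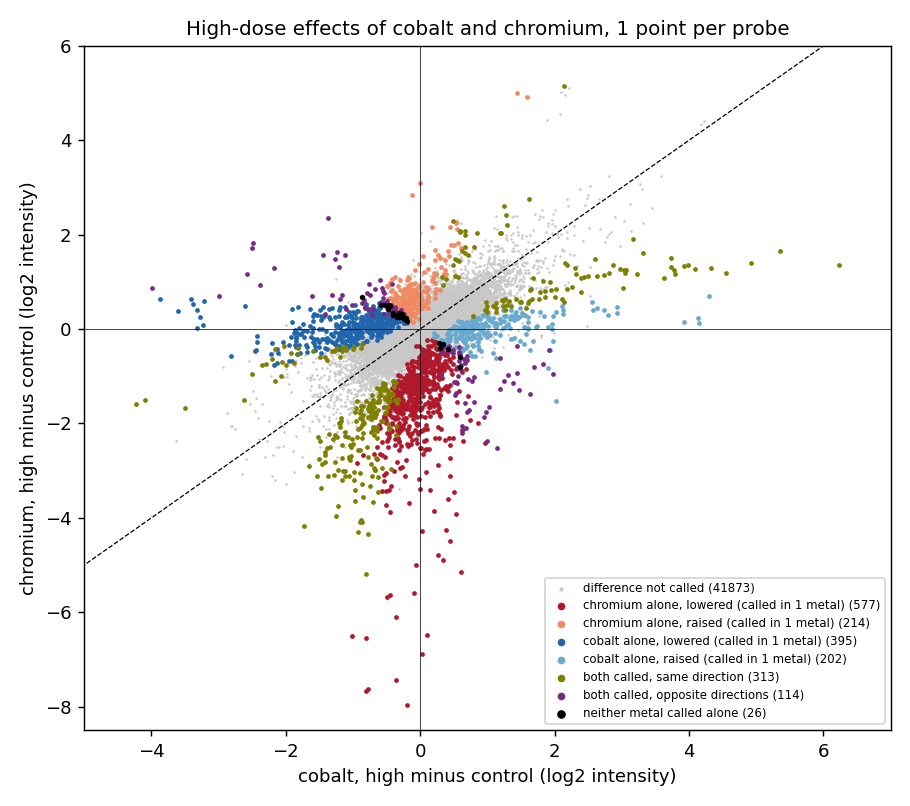
The cobalt effect at high dose (horizontal axis, log2 intensity, high minus control) is plotted against the chromium effect (vertical axis, same unit), with 1 point per probe, and the dashed line marks equal effects. Coloured points are the 1841 probes whose effects differed, and the arm that reaches furthest from the dashed line runs straight down, where the chromium effect reached -7.97 and the cobalt effect was near 0.

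Sorting the 1841 probes by each metal's own test gave the make-up of the comparison. These groups were formed with the same fit that called the difference, so their values are descriptions. The largest group held 577 probes of 398 transcripts, 31.3% of the calls, that chromium lowered while cobalt's own effect did not pass the test. A further 174 probes of 127 transcripts were lowered by both metals and more by chromium. Together, probes lowered in chromium alone or more made up 40.8% of the calls. Probes lowered in cobalt alone (395 probes of 316 transcripts) or more in cobalt (37 of 31) made up 23.5%. Probes raised in cobalt alone (202 probes of 164 transcripts) or more in cobalt (75 of 57) made up 15%, and probes raised in chromium alone (214 of 179) or more in chromium (27 of 23) made up 13.1%. Cobalt raised and chromium lowered 55 probes, and the reverse held for 59. At the last 26 probes neither metal's own effect passed the test.

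**Figure D2:**
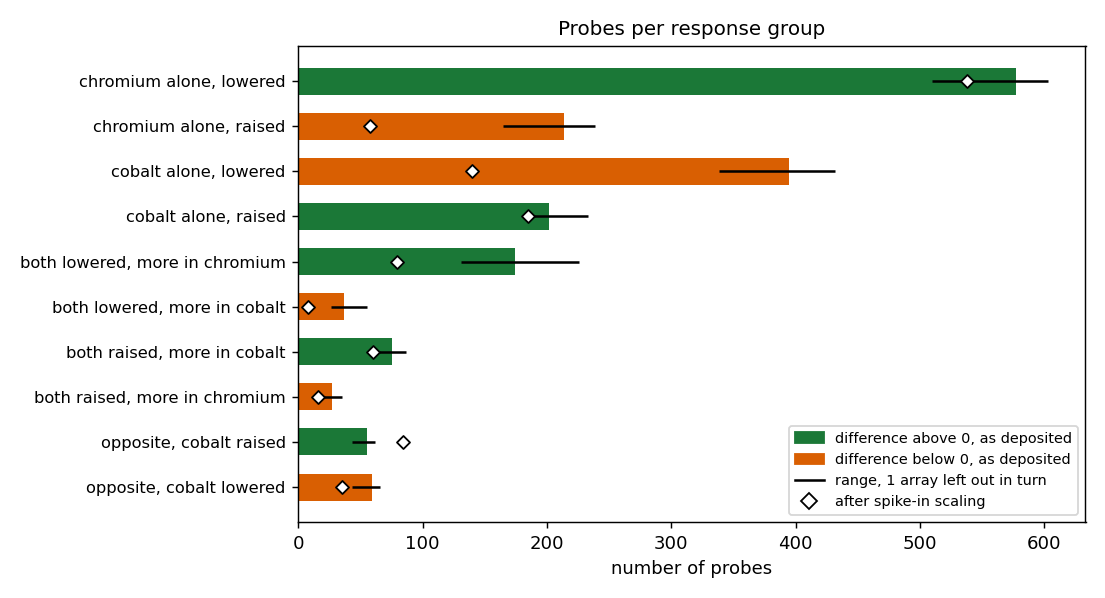
Bars give the number of probes in each response group (horizontal axis), green where the cobalt effect minus the chromium effect was above 0 and orange where it was below 0. Black lines span the counts with each of the 16 arrays left out in turn, and diamonds give the count after scaling to the spike-in controls. Groups were formed anew each time. After that scaling, 58 probes were raised by chromium alone in place of 214, and 140 were lowered by cobalt alone in place of 395.

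The split between directions depended on the scaling. As deposited, 1089 differences were above 0 and 752 below. After each array was scaled to 6 spike-in control rows, 1214 probes differed, 956 above 0 (78.7%) and 258 below. The mean of the spike-in rows was 8.45 ± 0.07 in high cobalt and 8.69 ± 0.09 in cobalt controls (SD, n = 4), a difference of -0.25 (exact permutation test, two-sided, p = 0.0286, the smallest that 4 against 4 allows; 0.0429 adjusted over 3 comparisons). For chromium it was 10.82 ± 0.27 and 10.96 ± 0.22, a difference of -0.15 (exact p = 0.371). This scaling moved the median of all probes up by 0.25 in the cobalt effect, by 0.15 in the chromium effect and by 0.10 in their difference, so directions given here are relative to the bulk of the probes on an array. Response groups were formed anew under this scaling, so their counts do not follow the same probes. The count lowered by chromium alone went from 577 to 538, whereas the counts of probes that were raised by chromium or lowered by cobalt dropped by more than 1.5-fold. The count lowered by both metals and more by chromium also dropped by more than 1.5-fold, from 174 to 79. The count that cobalt raised and chromium lowered went from 55 to 84.

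The most extreme differences belonged to transcripts whose signal chromium took from bright to near background. ENSDART00000018409_2 read 14.47, 14.37, 14.61 and 14.69 on the chromium control arrays and 4.79, 5.26, 11.28 and 4.93 on the high chromium arrays. On the cobalt arrays it read 13.78, 13.61, 13.95 and 13.83 in controls and 13.75, 13.51, 13.70 and 13.46 at high dose. All 4 high chromium arrays lay below every other array, the third far above its group, and the cobalt groups overlapped. The chromium effect was -7.97 ± 0.66 (SE) and the cobalt effect -0.19 ± 0.66, and they differed by 7.78 ± 0.93 log2 units (limma adjusted p = 1.03e-07). With values under the background limit set to it the difference was 7.71, and it was 9.26 when the third high chromium array was also left out. The other probe of the transcript gave 7.08 (adjusted p = 1.81e-07).

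ENSDART00000067818_1, of a second transcript, followed the same course, with a correlation of 0.996 between the 2 probes over the 48 arrays, which share the 12 groups. It read 13.57, 13.52, 13.82 and 13.85 in chromium controls and 4.71, 5.00, 9.89 and 4.66 at high chromium. In cobalt it read 13.58, 13.21, 13.40 and 13.65 in controls and 12.39, 12.67, 12.99 and 12.71 at high dose. The high cobalt arrays all lay below the cobalt controls, though that effect of -0.77 ± 0.53 did not pass the test (adjusted p = 0.397). The fit uses 1 spread per probe over all groups, and here the SD was 2.55 at high chromium. It was 0.20 in cobalt controls and 0.25 at high cobalt, so the missing call does not show that cobalt had no effect. The high chromium arrays lay lower than both cobalt groups, again with the third array highest. The difference was 6.85 ± 0.75 (limma adjusted p = 1.73e-08).

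Some probes that both metals lowered, and chromium more, also ended near background. ENSDART00000024328_2 fell from 10.35, 10.62, 10.76 and 10.66 in chromium controls to 4.83, 4.80, 7.22 and 4.80 at high chromium. In cobalt it fell from 9.92, 9.69, 10.25 and 9.99 to 8.76, 9.34, 9.17 and 9.37. Neither metal's exposed arrays overlapped with its controls, 3 of the 4 high chromium arrays were under the background limit, and the third was again the highest. The cobalt effect was -0.80 ± 0.28 and the chromium effect -5.19 ± 0.28, a difference of 4.38 ± 0.39 (limma adjusted p = 1.54e-10). ENSDART00000104074_1, with effects of -0.77 and -4.34, had a correlation of 0.987 with it over the 48 arrays and a difference of 3.57 ± 0.35 (adjusted p = 1.09e-09).

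The large chromium losses were shared by many transcripts, and so was the position of the third high chromium array. Among the 751 probes lowered in chromium alone or more, 132 probes of 85 transcripts differed from cobalt by over 4-fold. Their median chromium effect per array was -3.34, -3.21, -2.07 and -3.19. The third array was the highest of the 4 for 124 of these 132 probes, and for 500 of all 751. Leaving it out raised the count of called differences from 1841 to 1873, and the group lowered by both metals and more by chromium from 174 to 226. The source of this array's position was not tested. Of the 577 probes lowered by chromium alone, 106 were at or under the background limit on at least 1 high chromium array. On all 4 of these arrays 29 were, where the size of the fall has only a lower bound. On all 4 high cobalt arrays 9 of the 577 were at or under it.

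**Figure D3:**
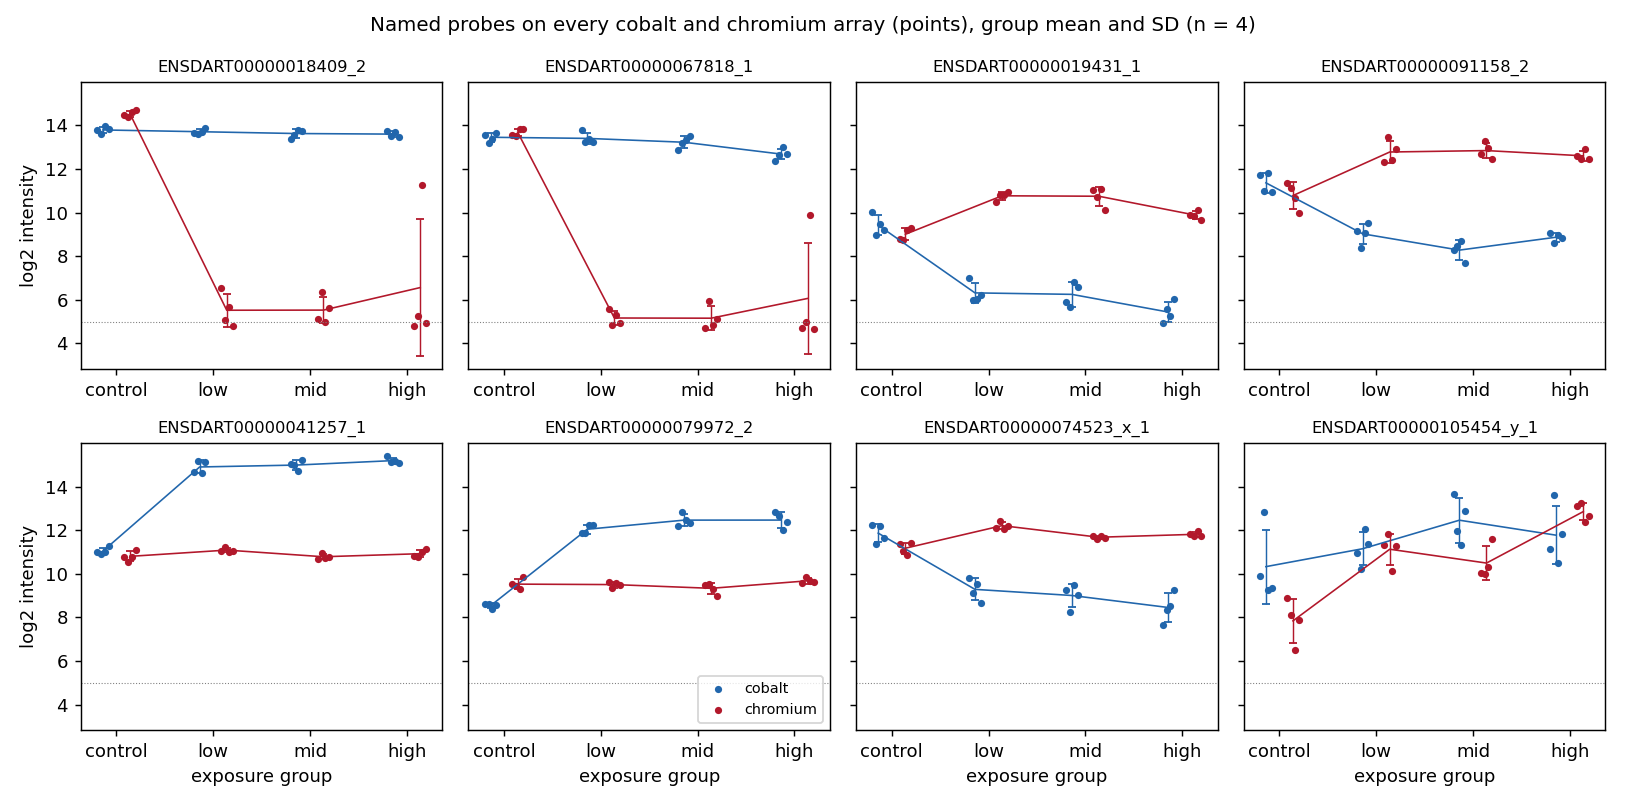
Log2 intensity (vertical axes) of 8 named probes is shown on every cobalt (blue) and chromium (red) array of the control, low, mid and high groups, with bars for the mean ± SD of 4 arrays and a dotted line at the background limit of log2 5. In the first 2 panels the chromium arrays fall from near 14 in controls to near 5 at low, mid and high dose while the cobalt arrays stay high, and the third high chromium array stands at 11.28 and 9.89.

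The 202 probes raised by cobalt alone had a median cobalt effect of 0.88. Of these, 13 were at or under the background limit on all 4 high chromium arrays. The named ones had a far larger cobalt response beside flat chromium values, and the choice of the group favours flat chromium values. ENSDART00000041257_1 read 11.01, 10.89, 10.99 and 11.25 in cobalt controls and 15.38, 15.14, 15.17 and 15.06 at high cobalt. In chromium it read 10.77, 10.54, 10.78 and 11.09 in controls and 10.80, 10.76, 10.98 and 11.12 at high dose. The high cobalt arrays stood far above all the others, and the chromium groups overlapped. Cobalt raised it by 4.15 ± 0.18 and the chromium effect was 0.12 ± 0.18, a difference of 4.03 ± 0.25 (limma adjusted p = 9.71e-15), or 16.3-fold, with 3.89 for the other probe of the transcript. High nickel raised it too, by 1.94 (adjusted p = 1.26e-10).

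ENSDART00000079972_2 came next. It read 8.59, 8.61, 8.38 and 8.55 in cobalt controls and 12.82, 12.66, 12.01 and 12.36 at high cobalt, against 9.52, 9.44, 9.29 and 9.83 in chromium controls and 9.57, 9.86, 9.66 and 9.61 at high chromium. Cobalt raised every array above all chromium arrays, from control values that were below all of them. The difference was 3.78 ± 0.22 (limma adjusted p = 2.9e-15), and the other probe of the transcript gave a smaller 2.41 (adjusted p = 8.37e-08). Its size rested on which arrays served as chromium controls. The nickel-labelled arrays of the same 4 pools read 7.88, 7.65, 7.62 and 8.22 for this probe, below every chromium-labelled array of these pools, and with them as controls the difference was 2.098 (adjusted p = 4.52e-09).

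Probes lowered by cobalt alone were more numerous and mostly modest, with a median difference of -0.91. The lowest, -4.52, was the second probe of ENSDART00000019431, a transcript described with the opposite responses. ENSDART00000074523_x_1 read 12.23, 11.37, 12.19 and 11.64 in cobalt controls and 7.65, 8.35, 8.54 and 9.25 at high cobalt. In chromium it read 11.37, 11.04, 10.87 and 11.40 in controls and 11.82, 11.75, 11.94 and 11.72 at high dose. Cobalt took it below all other arrays, while the high chromium arrays lay slightly above their controls without passing the test (0.64, adjusted p = 0.0883). The difference was -4.05 ± 0.36 (limma adjusted p = 1.26e-10), and the other probe of the transcript gave a smaller -2.31 (adjusted p = 1.74e-07). ENSDART00000074479_y_2 had a correlation of 0.985 with it over the 48 arrays and a difference of -4.00 ± 0.39 (adjusted p = 9.38e-10), but the other probe of that transcript differed by -0.30 and did not pass (adjusted p = 0.113), so the transcript's 2 probes disagreed in size. Of the 395 probes, 19 were at or under the background limit on all 4 high cobalt arrays.

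Where both metals moved a probe the same way and cobalt moved it further, rises were more frequent than falls. The 75 probes raised more in cobalt had a median cobalt effect of 2.11 and a median chromium effect of 0.85, and 5 of them differed by over 8-fold. The largest difference among them was at ENSDART00000055287_1, chosen after its values were seen. It read 5.63, 5.56, 5.62 and 5.65 in cobalt controls and 12.20, 11.70, 11.58 and 11.88 at high cobalt. In chromium it read 5.53, 5.18, 5.57 and 5.81 in controls and 7.63, 6.58, 6.64 and 6.70 at high dose. Both metals lifted every exposed array above all controls, and the high cobalt arrays stood above all of the high chromium arrays. The cobalt effect of 6.23 ± 0.20 and the chromium effect of 1.36 ± 0.20 differed by 4.87 ± 0.29 (limma adjusted p = 2.9e-15), with 3.53 at the other probe of the transcript (adjusted p = 1.88e-08). High nickel raised it by 4.36 (adjusted p = 1.36e-18). The 37 probes lowered more in cobalt had medians of -1.59 and -0.51. ENSDART00000082927_1 belonged to the latter, and the other probe of its transcript had the lowest difference of the 37, at -2.64. The named probe fell from 11.30, 11.08, 11.82 and 11.91 to 7.16, 7.25, 7.12 and 8.21 in cobalt, and from 12.23, 12.73, 12.69 and 12.75 to 10.59, 11.28, 11.82 and 10.71 in chromium. Each metal's groups were separate, and the fall was deeper in cobalt, with a difference of -2.59 ± 0.42 (limma adjusted p = 3.92e-05).

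The metals moved 114 probes in opposite directions. The 55 that cobalt raised and chromium lowered had median effects of 0.67 and -0.97, and the 59 that cobalt lowered and chromium raised had median effects of -0.72 and 0.56. ENSDART00000019431_1 had the lowest difference of all probes. It fell in cobalt from 10.03, 8.97, 9.48 and 9.22 to 4.92, 5.56, 5.25 and 6.02, near the background limit. In chromium it rose from 8.77, 8.77, 9.21 and 9.29 to 9.91, 9.85, 10.11 and 9.67. The exposed arrays lay on opposite sides of the controls in every case, with effects of -3.99 ± 0.26 and 0.88 ± 0.26. The difference was -4.86 ± 0.37 (limma adjusted p = 3.07e-12), with -4.52 at the transcript's other probe. That other probe was in the group lowered by cobalt alone, so its own chromium effect did not pass.

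ENSDART00000091158_2 also moved in opposite directions. It read 11.73, 10.99, 11.81 and 10.95 in cobalt controls and 9.09, 8.61, 8.98 and 8.82 at high cobalt, and 11.37, 11.14, 10.66 and 9.97 in chromium controls and 12.59, 12.45, 12.93 and 12.45 at high chromium. The 2 sets of control arrays overlapped, and the high cobalt arrays lay below the high chromium arrays by a level difference of -3.73. The effects were -2.49 ± 0.28 and 1.82 ± 0.28, a difference of -4.32 ± 0.40 (limma adjusted p = 2.93e-10), and nickel raised this probe by 1.76 (adjusted p = 2.11e-05), the direction seen with chromium.

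In the reverse orientation, ENSDART00000008752_2 rose in cobalt from 10.42, 10.83, 10.42 and 10.28 to 11.99, 11.82, 11.15 and 10.99, and fell in chromium from 11.54, 11.53, 11.98 and 11.77 to 9.24, 8.83, 9.62 and 9.62. Neither pair of groups overlapped, and the difference was 3.38 ± 0.31 (limma adjusted p = 2.17e-10). ENSDART00000104586_2, a dimmer probe with control means of 6.22 in cobalt and 6.67 in chromium, reached 7.86 ± 0.67 at high cobalt and 5.29 ± 0.17 at high chromium (SD, n = 4), a difference of 3.02 ± 0.41 (adjusted p = 1.33e-06).

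Among the named probes raised by chromium, alone or more, the control arrays of the metals differed. For ENSDART00000014166_1 the cobalt controls read 11.23, 10.98, 10.92 and 10.90 and the high cobalt arrays 10.74, 11.03, 11.45 and 10.79. The chromium controls read 9.23, 8.99, 8.90 and 8.46 and the high chromium arrays 10.76, 12.13, 12.55 and 12.51. The cobalt groups overlapped, and the chromium controls lay below all of the other arrays. The difference in effect was -3.10 ± 0.48 (limma adjusted p = 1.75e-05), although the high arrays of the metals differed by only -0.98 in level (adjusted p = 0.0359) while the controls differed by 2.12 (adjusted p = 2.22e-05).

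ENSDART00000105454_y_1 and ENSDART00000105448_x_1 had a correlation of 0.966 over the 48 arrays and wide spreads. The first read 9.89, 12.84, 9.25 and 9.32 in cobalt controls and 11.16, 13.61, 10.50 and 11.80 at high cobalt. In chromium it read 8.87, 8.11, 6.49 and 7.87 in controls and 13.12, 13.22, 12.38 and 12.67 at high dose. The cobalt groups overlapped and the second cobalt control stood far above the other controls. The difference was -3.57 ± 0.93 (limma adjusted p = 0.0147), and it did not pass without the second cobalt control array (-2.73) or without the third chromium control array (-3.12). Nor did it pass with only the 16 arrays of the comparison in the fit (adjusted p = 0.108). ENSDART00000105448_x_1 differed by -3.01 ± 0.90 (adjusted p = 0.0467), a call that was lost in 17 of 29 alternative settings, among them the omission of each of 10 of the 16 arrays, and the other probe of neither transcript passed (adjusted p = 0.253 and 0.195).

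The 26 probes at which neither own effect passed had smaller differences. ENSDART00000059035_2 had effects of 0.28 and -0.30 and a difference of 0.58 ± 0.15 (limma adjusted p = 0.0168). ENSDART00000097508_2 had a difference of -1.10 ± 0.32 (adjusted p = 0.0395), lost in 15 of 29 alternative settings, again including 10 of the 16 arrays left out in turn. ENSDART00000080350_2 had -1.03 ± 0.28 (adjusted p = 0.0209), and -0.94 or -0.92 with no call when the second or the fourth chromium control array was left out. In the last 2 probes the control arrays of the metals differed by 1.02 and 0.81 and the high arrays by -0.07 and -0.23. The other probe of each transcript did not pass, at 0.25, -0.77 and -0.83 in the order above (limma adjusted p = 0.781, 0.247 and 0.0753). At mid and low dose ENSDART00000059035_2 differed by 0.26 and 0.19 and passed at neither (adjusted p = 0.476 and 0.633). ENSDART00000097508_2 and ENSDART00000080350_2 passed at both.

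A difference in effects can come from the exposed arrays, from the controls or from both, and the levels were therefore set side by side. The cobalt and chromium controls differed at 6957 probes, 15.9% of those tested, and the high arrays differed at 8589, or 19.6%. Cobalt arrays and chromium arrays form separate sets, and the spike-in rows of their controls differed by -2.27 (8.69 ± 0.09 against 10.96 ± 0.22, SD, n = 4, exact permutation p = 0.0286, two-sided), so in these level comparisons the array set and the metal cannot be told apart. The subtraction of controls removes only what a set adds equally to control and exposed arrays. Anything else that differs between the sets cannot be told apart from the metal in the difference in effects. The difference in effects is by arithmetic the level difference of the high arrays minus that of the controls, so the following counts divide it and are no second test. Of the 1841 differences in effect, 1376 (74.7%) had high arrays that differed in the same direction. At 1039 (56.4%) the high arrays differed and the controls did not pass. At 402 (21.8%) the controls differed and the high arrays did not pass, 183 with a difference above 0 and 219 with one below 0. Both differed in opposite directions at 252 probes and in the same direction at 104, and neither passed at 44. Under the spike-in scaling, which moved the median level difference of cobalt minus chromium up by 2.27 in the controls, the counts of 1039 and 402 became 4 and 20. With the nickel-labelled arrays of the shared pools as chromium controls they were 1569 and 438.

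**Figure D4:**
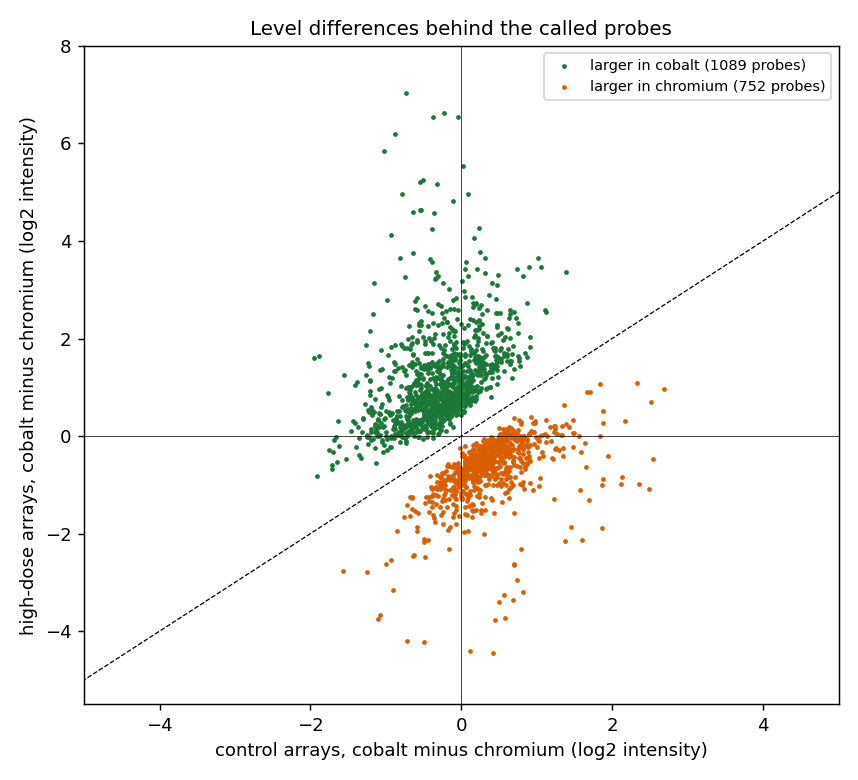
For the 1841 called probes, the level difference between cobalt and chromium control arrays (horizontal axis, log2 intensity, cobalt minus chromium) is plotted against that between the high-dose arrays (vertical axis), and the distance from the dashed line is the difference in effect. Green points (1089, above 0) reach up to a high-array difference of 7.04, at a control difference of -0.74. Many orange points (752, below 0) lie to the right, where the cobalt controls were brighter.

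The low and mid exposures gave the same comparison at other concentrations, 39.7 and 46.3 mg/L for cobalt and 56.5 and 69.9 mg/L for chromium. They use the same control arrays as the high dose, so the values are only placed beside each other. The effects of the metals differed at 2360 probes at low dose, 5.4% of those tested, and at 1972 at mid dose, 4.51%. Over the probes called above 0 at high dose the median difference at the low, mid and high dose was 1.17, 1.12 and 1.203. Over those called below 0 it was -0.77, -0.66 and -0.89. The high dose chose these probes, which favours its own values.

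The losses with chromium averaged similar sizes at the 3 doses. The groups raised or lowered by cobalt alone, and the group raised by chromium alone, averaged further from control at high than at low dose. The high-dose calls formed all of these groups, which favours the high-dose values, so no dose trend is drawn from them. For the probes lowered by chromium alone, the median chromium effect per array averaged -1.23 ± 0.02 at low, -1.24 ± 0.07 at mid and -1.35 ± 0.17 at high dose (SD, n = 4). The same was done for the 132 probes lowered in chromium, alone or more, that differed from cobalt by over 4-fold. Their median chromium effect averaged -3.07 ± 0.07, -3.07 ± 0.07 and -2.95 ± 0.59, and the cobalt arrays averaged -0.04 ± 0.07, -0.10 ± 0.10 and -0.23 ± 0.08. The spread at high chromium was that of the third array. The group lowered by chromium alone read -1.51, -1.36, -1.11 and -1.41 on the high chromium arrays. All but the third lay beyond every low chromium array, which ranged from -1.26 to -1.21. For probes raised by cobalt alone the cobalt averages were 0.58 ± 0.05, 0.68 ± 0.10 and 0.92 ± 0.10, and for probes lowered by cobalt alone -0.66 ± 0.04, -0.67 ± 0.08 and -0.88 ± 0.09. The chromium averages of these last 2 groups stayed between 0.02 and 0.19 at the 3 doses. The group raised by chromium alone averaged 0.50 ± 0.07, 0.49 ± 0.03 and 0.66 ± 0.04 in chromium.

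**Figure D5:**
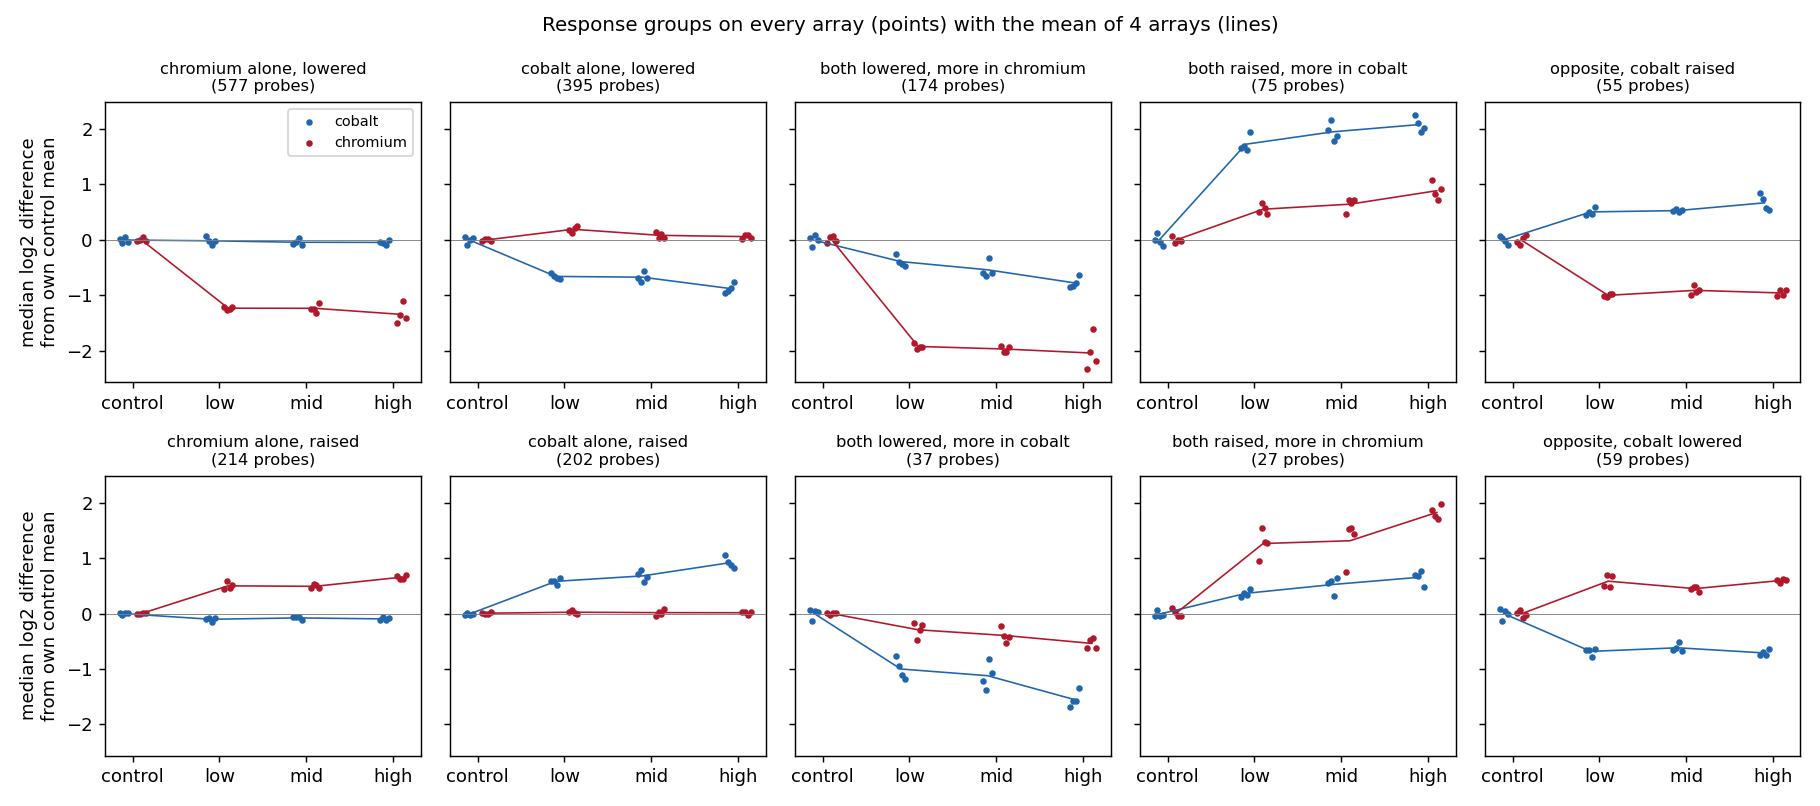
Each point is the median, over the probes of a response group, of an array's log2 difference from the mean of its own controls (vertical axes), for cobalt (blue) and chromium (red) at control, low, mid and high dose, and lines join the means of 4 arrays. Red points in the groups lowered by chromium alone or more average -1.23 and -1.93 at low dose and -1.35 and -2.04 at high dose. Blue points in the groups raised and lowered by cobalt alone average 0.58 and -0.66 at low dose and 0.92 and -0.88 at high dose.

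Several named probes were near their high-dose level already at low and mid dose. ENSDART00000018409_2 averaged 5.52 ± 0.76 at low and 5.53 ± 0.61 at mid chromium (SD, n = 4), and ENSDART00000024328_2 was under the background limit on all 8 low and mid chromium arrays. ENSDART00000041257_1 averaged 14.90 ± 0.30 and 14.98 ± 0.21 at low and mid cobalt, close to its 15.19 ± 0.14 at high cobalt. Probes raised by chromium varied more between doses. ENSDART00000014166_1 differed between metals by -2.93 at low dose (limma adjusted p = 3.72e-05) but by -0.35 at mid dose (adjusted p = 0.845), where cobalt arrays averaged 11.84 ± 0.63 and chromium arrays 10.08 ± 0.36. ENSDART00000105454_y_1 differed by -2.46 and -0.52 at low and mid dose and passed at neither (adjusted p = 0.136 and 0.893).

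The step from low to high dose was compared without any control array. It differed between the metals at 71 probes, 0.162% of those tested. The cobalt step minus the chromium step was above 0 at 59 and below 0 at 12. At the 59 probes the median step per array was between 0.42 and 0.69 in high cobalt and between -1.17 and -0.61 in high chromium, and at the 12 it was between -1.06 and -0.62 in cobalt and between 0.12 and 0.28 in chromium. The same arrays chose these probes, so the medians are descriptions and their separation by metal is no further result. The count ranged from 47 without the first to 111 without the fourth high cobalt array, and 3255 of the 43714 probes tested passed an unadjusted p of 0.05.

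The probes of a transcript were also compared with each other. Calls fell on 1306 transcripts. Of the 1299 with 2 probes, both probes were called at 535, in opposite directions at 1 of these, and of the 764 with 1 called probe the other had the same sign at 712. Both probes had the same sign at 95.9% of transcripts with a call and at 63.1% of all transcripts with 2 probes. Calls were scarce among dim probes, at 0.333% of the 14107 probes with a mean up to log2 5, and reached 14.5% of the 2352 probes with a mean between 10 and 12 and 13.4% of the 1040 above 12, so these data bear mainly on the brighter signals.

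Nickel, the other metal of the series, whose high dose was 64.0 mg/L, is set beside these groups as values only, since its controls were arrays of the RNA pools also used for chromium. Its own high-dose effect passed the test at 4230 probes, 9.68% of those tested, with 2358 higher and 1872 lower. The median nickel effect was 1.16 over the probes raised more in cobalt, 0.98 over those raised more in chromium, -0.74 over those lowered more in cobalt and -0.57 over those lowered more in chromium. In all of these groups it lay in the direction shared by cobalt and chromium. Over the groups moved by 1 metal alone the nickel medians were nearer to 0, at -0.28 and 0.24 for those lowered and raised by chromium and -0.19 and 0.21 for those lowered and raised by cobalt. Over the opposite groups they were -0.03 where cobalt raised the signal and 0.17 where cobalt lowered it. The cobalt and chromium calls chose these groups, which favours nickel medians nearer to 0, so no conclusion is drawn from them. The nickel effect was -0.43 at ENSDART00000018409_2 (limma adjusted p = 0.834) and -0.65 at ENSDART00000067818_1 (adjusted p = 0.594), where the wide spread at high chromium enters the test. Nickel passed at ENSDART00000024328_2 (-1.50, adjusted p = 0.000183) and ENSDART00000104074_1 (-1.14, adjusted p = 0.00133). It lowered 115 and raised 6 of the 577 probes lowered by chromium alone. Of the 174 lowered by both and more by chromium, it lowered 97 and raised 0. In either direction nickel passed at 21% and 55.7% of these groups, against 9.68% of all probes. The shares were 21.8% and 94.6% for probes lowered by cobalt alone or more in cobalt. For probes raised alone or more they were 30.2% and 85.3% in cobalt and 31.8% and 81.5% in chromium. No conclusion is drawn from these shares either. The difference between nickel and the other metals was not tested here.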

How the data were processed

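Total RNA of whole zebrafish was pooled, labelled with Cy3 by a one-colour amplification kit and hybridised, per the labels' protocols. The authors deposited log2 intensities, 1 value per probe and array; that they are log2 follows from their range, and no source used here gives the scanner, background correction or normalization. Columns had nearly equal distributions and were used as deposited. The 61 control rows stayed out of the tests, and 0 columns were unmapped.

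Groups came from the labels. R 4.3.3 and limma 3.58.1 (lmFit, eBayes) were run on all 48 arrays with 12 group means, which leaves 36 residual degrees of freedom per probe, so exposed groups outside the comparison also inform the spread. Benjamini-Hochberg adjustment ran over 43714 probes, with a threshold of 0.05 and no fold limit. A probe called in a comparison is one that passed. Effects and their difference are log2 values. Response groups follow each metal's own test in that fit. The spike-in rows are the 6 control rows of the E1A series with a mean between log2 6 and 15.

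Since no source pairs the IDs with symbols, no probe was given a gene symbol, and gene lists and tissue markers were not run. Named probes are, per transcript the brightest probe, the 2 highest and 2 lowest differences over all and within 5 pooled classes (chromium alone, cobalt alone, both in the same direction, opposite, neither), where every other probe of the transcript has the same sign. The class moved by both metals in the same direction pools rises and falls, so ENSDART00000055287_1 was added after its values were seen. The comparison, the groups and the lists were chosen with earlier results of these data known. The background limit and the values without the third high chromium array were chosen after seeing the data. The fit was tested on simulated data. Replicate numbers did not pair the arrays by the criterion used (8 same-numbered pairs of control and high arrays, 3 with a correlation over 0.1, range -0.04 to 0.23), so no block was used. Alternatives changed the arrays fitted, the dim-probe filter, the normalization, the block, the moderation, the array weights, the chromium controls, the floor, the fold limit and the arrays, left out in turn.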

Additional observations from a re-analysis of the deposited data

Results flagged for a closer look

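In 9 of 124 groups of 4 arrays examined, the highest or lowest array stood apart from the other 3 by more than Dixon's critical value. Chance gives about 1 in 20 for independent groups, but these share arrays, so the count cannot be set against it. The third high chromium array accounted for 3 of the 9, as the highest array of its group, at 11.28 for ENSDART00000018409_2, 9.89 for ENSDART00000067818_1 and 7.22 for ENSDART00000024328_2. These 3 probes correlated between 0.968 and 0.996 over the 48 arrays. The fourth high cobalt array was the lowest at 8.74 for ENSDART00000059035_2 and the highest at 8.21 for ENSDART00000082927_1. The first chromium control was the lowest at 12.23 for ENSDART00000082927_1. Among group medians relative to control, the second cobalt control stood apart at -0.13 over the probes lowered more in cobalt and at 0.069 over those raised more in chromium, and the fourth cobalt control at -0.18 over the probes with a positive difference at which neither metal's own effect passed.

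The effects of cobalt and chromium differed by the test of the difference itself at 1841 probes at high, 1972 at mid and 2360 at low dose, and their steps from low to high dose at 71 (limma adjusted p under 0.05). At high dose the named probes with a difference above 0 were ENSDART00000018409_2 (7.78), ENSDART00000067818_1 (6.85), ENSDART00000055287_1 (4.87, added after its values were seen), ENSDART00000024328_2 (4.38), ENSDART00000041257_1 (4.03), ENSDART00000079972_2 (3.78), ENSDART00000104074_1 (3.57), ENSDART00000008752_2 (3.38), ENSDART00000104586_2 (3.02) and ENSDART00000059035_2 (0.58). Those with a difference below 0 were ENSDART00000019431_1 (-4.86), ENSDART00000091158_2 (-4.32), ENSDART00000074523_x_1 (-4.05), ENSDART00000074479_y_2 (-4.00), ENSDART00000105454_y_1 (-3.57), ENSDART00000014166_1 (-3.10), ENSDART00000105448_x_1 (-3.01), ENSDART00000082927_1 (-2.59), ENSDART00000097508_2 (-1.10) and ENSDART00000080350_2 (-1.03).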

How the results depend on the processing

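The count of 1841 probes lay between 1508 (with only the 16 arrays in the fit) and 2519 (with the nickel-labelled arrays of the shared pools as chromium controls, 52.4% above 0), except under the 2 alternatives that moved it by over 1.5 times. These were the spike-in scaling, with 1214 probes, and a limit of 2-fold, with 1013. Spike-in scaling also gave 1124 at mid dose (66.1% above 0 against 58.7%) and 1408 at low dose (64.8% against 54.8%). It gave 43602 between the controls and 43584 between the high arrays, where the spike-in rows of the 2 array sets stand apart. The changed probes at high cobalt became 8454 (86% higher against 51.1%) and at high chromium 5815 (71% against 54%), and the step gave 61. With the nickel-labelled controls, the probes raised by chromium alone were 508 in place of 214. The 16-array fit gave 101 probes lowered by both metals and more by chromium, in place of 174. The replicate block within metals gave 1964 and across metals 1921, within 1.5 times the count without a block, and among named probes the block within metals ended the calls of ENSDART00000105448_x_1 and ENSDART00000097508_2, which the block across metals did not; within metals it allows no comparison of controls or of high arrays. The control pool as a random block gave 1860.

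With 1 array left out in turn the high-dose count ranged from 1636 to 1873, the mid-dose count from 1685 to 1903, the low-dose count from 2062 to 2391 and the step count from 47 to 111. No named difference was reversed in 29 alternatives. Of the 20, 15 kept their call in all of them, and 5 lost it in at least 1: ENSDART00000105448_x_1 in 17, ENSDART00000097508_2 in 15, ENSDART00000105454_y_1 and ENSDART00000080350_2 in 3 each and ENSDART00000059035_2 in 1. The causes were not tested. Signal over background limits the dim probes.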
